A study of Mus musculus with 4 samples.

Results

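The comparison set out here is between B220 B cells of the spleen and B220 B cells of the bone marrow of Mef2c knockout (KO) mice. It rests on 2 of the study's 4 arrays, chosen by their titles: 1 array of spleen KO cells and 1 array of marrow KO cells. With 1 array a side there is no replicate error, no test and no p-value, and every difference below is a difference between these arrays. The other 2 arrays hold B220 cells of the spleen and the marrow of C57BL/6 mice (WT), and are used only to show where KO stood apart.

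All mice were naive and all cells were freshly isolated, per the labels. B220 is a form of the surface phosphatase CD45 that mouse B-lineage cells carry from their early marrow stages onward, and that some plasmacytoid dendritic and NK cells carry too. The strain field of both KO arrays gives only the Mef2c knockout, and the series title ties the deficiency to bone marrow. The sources used here do not give the deleted part of Mef2c, the driver of the deletion, the strain background, the age and sex of the mice, the number of animals behind an array or the way B220 cells were sorted.

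A level is the log2 of a gene's processed signal over the 75th percentile of the gene spots of its array, so 0 is the level of a fairly bright spot. A difference is the spleen level minus the marrow level, and a difference of 1 is 2-fold. A gene counted as measured where the scanner marked its probe as well above background on either of the compared arrays. Where it was not well above background on the other array, the fold is a bound and is written "at least". List medians and the median over all genes use the measured difference of such genes and not the bound, unless bounds are named. Levels of different genes come from different probes and are not ranked against each other.

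The spleen KO array was the dimmest of the 4. Its 75th percentile was 520 signal units, against 961 to 1008 on the others, and 59.3% of its gene spots were well above background, against 69.1% to 72.0%. Spleen arrays shared 1 slide and scan and marrow arrays another, per the file headers, so organ cannot be told apart from slide and scan. Signal well above background was found for 0 of 4 Y-linked genes on the spleen KO array and for 4 of 4 on each other array, and Xist, the X-inactivation RNA, was higher in spleen by 1.21 in KO and 1.28 in WT. Ribosomal RNA probes also differed: Rn18s stood at 1.93 in KO spleen and 5.22 in KO marrow, a difference of -3.28, against 1.996 in WT. Of 5131 genes with at least 2 measured probes, 22.8% had probes over 2-fold apart in the KO difference, against 35.0% of 5809 in WT. The part of sex, strain background, ribosomal RNA and slide in the differences below was not tested.

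B cells are made in the marrow, where pro-B and pre-B cells divide under interleukin 7, cut and join their antibody genes with the RAG recombinase, and carry a surrogate light chain in place of the final one. Immature cells that have a complete receptor leave for the spleen, where they become follicular or marginal zone B cells, stop dividing, and put on MHC class II, complement receptors and homing receptors. Mef2c is a MADS-box transcription factor of B cells and muscle that takes signals from the B cell receptor through calcineurin and p38, and is held in check by class IIa histone deacetylases.

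B lineage markers were bright on both KO arrays, though not alone. All 11 measured B lineage identity genes were well above background in both organs, and so were 17 of 17 neutrophil markers on the marrow KO array and 14 of 17 on the spleen KO array, S100a9 at 8.81 in marrow among them. Ptprc, which encodes CD45 itself and is carried by all leukocytes, stood at 7.33 in spleen and 5.26 in marrow. Cd79b, a signal chain of the B cell receptor, stood at 8.60 and 7.43. Of these 11, 5 were at least 2-fold brighter in spleen, among them Ms4a1, which encodes CD20, by 2.77, Cd22, an inhibitory receptor, by 2.16, Ptprc by 2.06 and Cd79b by 1.17. The transcription factors Ebf1 and Spib were lower in spleen, at -1.19 (0.77 by another Ebf1 probe) and -1.14, and Pax5, the factor that commits cells to the lineage, differed by -0.78. The list median was 0.65, and 0.03 after quantile normalization of the 4 arrays.

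Mef2c was itself read by a pair of probes on the arrays. The brighter probe, at chr13:83802754-83802813 of build mm9, gave 11839 signal units in KO spleen and 5511 in KO marrow, against 8534 in WT spleen and 4218 in WT marrow. The unscaled signal of this probe in KO was thus not below that in WT in either organ, and its KO difference was 2.06 against 1.0 in WT. The dimmer probe, at chr13:83717123-83717182, gave 128 in KO spleen and 28.5 in KO marrow, against 364 and 21.2 in WT. Since the sources used here do not place the deletion, neither probe checks the genotype, which rests on the labels alone.

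Of 20320 genes measured in the KO comparison, 3192 (15.7%) were at least 2-fold higher in spleen and 2822 (13.9%) at least 2-fold lower. At 8-fold the balance was the other way, with 276 genes higher and 608 lower. The WT comparison gave 3319 of 21446 genes (15.5%) on the spleen side and 3375 (15.7%) on the marrow side. The WT values are open to the scaling: the spike-in median was 443 signal units on the spleen WT array against 1223 to 2210 on the others, and scaling to the spike-ins adds 2.11 to every WT difference and -0.10 to every KO difference. That turns the WT counts to 17051 and 376 and the WT median over all genes from -0.12 to 1.99, while centring arrays on their median gives 2745 and 4306. Of the 37 WT list medians, 13 changed side with spike-in scaling and at most 3 under any other alternative. All WT values below are relative to the 75th percentile unless another scaling is named. Higher genes made up 53.1% of those at least 2-fold apart in KO, and 65.1% with each array centred on its median. The median over all measured genes was 0.07. In all, 6014 genes (29.6%) stood at least 2-fold apart in KO. The shares 15.7% and 13.9% are the background for each list below. They include genes above background on 1 array only, 289 in spleen and 3254 in marrow, of which 289 counted as higher and 761 as lower. The lowest signal well above background was at -4.94 on the spleen KO array and -5.93 on the marrow KO array. This gap favours a 2-fold call for genes seen in spleen only. Over genes above background on both arrays, 2903 were higher and 2061 lower.

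The early B cell program was far lower in KO spleen than in KO marrow. The early list, for the pro-B and pre-B stages, holds 31 members, all measured, of which 24 were at least 2-fold lower in spleen and 0 higher, and its median was -3.24. In whole populations such as these, fewer cells of a type and less RNA per cell cannot be told apart. Igll1, the lambda 5 part of the surrogate light chain, stood at 4.59 in marrow and was not well above background in spleen, at least 738-fold lower. Its partner Vpreb1 stood at 8.13 in marrow and -0.73 in spleen, 462-fold lower. Rag1 stood at 5.17 and -3.81, 507-fold lower, and its partner Rag2 at -2.49 in marrow with no signal well above background in spleen, at least 5.48-fold lower. Thus both partners of the recombinase and of the surrogate light chain were lower in spleen.

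Dntt, the polymerase that adds random bases at the joins, stood at 7.22 in marrow and -0.79 in spleen, a difference of -8.01. Il7r, the interleukin 7 receptor, stood at 3.86 and -1.45, and Kit, the stem cell factor receptor, at -0.92 and -4.15. Cd93, which marks B cells up to the transitional stage, stood at 5.40 and 0.34. All of these were lower in spleen, though Cd93 and Dntt kept a signal well above background there. Vpreb3, which unlike Vpreb1 is carried on into later stages, was lower by less, at 7.77 in marrow and 5.27 in spleen. Arpp21 was at least 97.9-fold lower. The members with the smallest differences were Hmgn1 at 0.64, Crlf2 at 0.51, Tcf4 at 0.17, Dnajc7 at 0.03 and Ptcra at 0.02, none of which is restricted to early B cells.

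WT gave close values for the core of this list. The WT differences were -9.29 for Rag1, -9.32 for Vpreb1 and -7.47 for Dntt, and the WT list median was -3.51 with 26 of 31 genes lower. Relative to the 75th percentile, remaining spleen signal was higher in KO than WT for Vpreb1 (-0.73 against -2.54) and Dntt (-0.79 against -1.79). It was lower for Cd93, at 0.34 against 1.92. The order for Vpreb1 and Dntt turns on the scaling. Their unscaled signals were 314 and 300 in KO spleen, against 167 and 280 in WT spleen. The spike-in median was 1223 on the spleen KO array and 443 on the spleen WT array, so spike-in scaling puts both genes lower in KO. With 1 array for each organ and genotype, these differences between KO and WT were not tested.

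**Figure D1:**
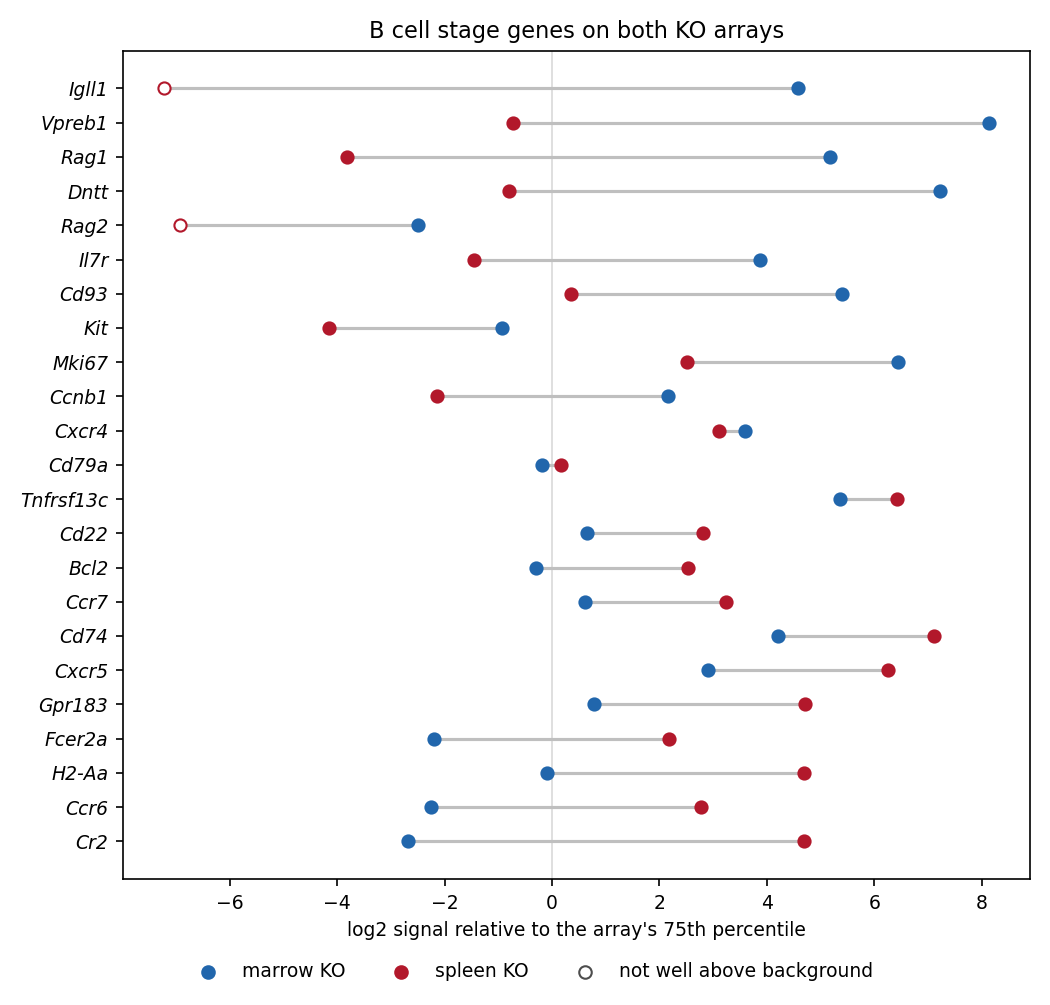
Level of 23 B cell stage genes (log2 signal relative to the array's 75th percentile, horizontal axis) on the marrow KO array (blue) and the spleen KO array (red), ordered roughly from early to late stages. Open points were not well above background. Igll1, Vpreb1, Rag1 and Dntt sit far to the left in spleen, whereas Cr2, Ccr6, H2-Aa and Fcer2a sit far to the right.

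Mature B cell genes ran the other way. In KO spleen 31 of the 36 measured members were higher by 2-fold or more and 0 lower, against a background of 15.7% higher, and the list median was 2.66. Cr2, complement receptor 2 (CD21), stood at 4.69 in spleen and -2.69 in marrow, a difference of 7.38, although its other probe gave 1.1. Fcer2a, the low-affinity IgE receptor CD23 of follicular B cells, stood at 2.19 and -2.20, a difference of 4.39. Ccr6, a chemokine receptor, stood at 2.77 and -2.25, and Icosl, a ligand for helper T cells, at 4.46 and -0.25. Each of these receptors was below the 75th percentile of the array in marrow and above it in spleen.

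Cd83, a maturation and activation marker, was higher in spleen by 4.86 and Bcl2, the survival factor of resting B cells, by 2.83. The members that did not reach 2-fold were Klf2, a quiescence factor, at 0.72, Tnfrsf13b, the TACI receptor, at 0.69 with another probe at 2.66, Cd37 at 0.26, Tlr9 at 0.02 and Cd44 at -0.98. Klf2 was not settled by its probes, which gave -1.27 and 0.72. WT had 30 of 36 on the spleen side and 1 on the marrow side, around a median of 1.84.

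The 14 immature and transitional B cell genes had 6 members on the spleen side, 4 on the marrow side and a median of 0.50. The lower members were Rag1, Cd93, Spn at -1.58 and Cd24a, the heat stable antigen of immature cells, at -1.42. The higher ones included Ms4a4c, a CD20-like membrane protein, at 5.74, S1pr1, the sphingosine receptor used to leave the marrow, at 1.97, Ly6d at 1.93 and Plac8 at 1.38. The list thus split into members shared with the marrow stages and members shared with mature cells.

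MHC class II genes were higher in spleen throughout. All 13 members, from the class II chains to their loading machinery, were at least 2-fold higher in KO spleen, with a median of 3.38 and a range of 1.42 to 5.04. H2-Eb1 stood at 4.77 in spleen and -0.26 in marrow, H2-Aa at 4.70 and -0.10, and H2-Ab1 at 6.95 and 2.91. These are the peptide-binding chains shown to T cells. Cd74, the invariant chain that guards their groove, stood at 7.11 and 4.21, and H2-DMb1, part of the DM peptide exchanger, at 5.80 and 1.42. H2-Oa and H2-Ob, the brake on DM in B cells, were higher by 2.27 and 3.07. H2-Eb2 was not well above background in marrow and was at least 11.6-fold higher in spleen.

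Ciita, the co-activator that class II genes depend on, stood at 0.67 in spleen and -2.12 in marrow, a difference of 2.79, and at 4.79 and -0.02 in WT, a difference of 4.81. Ifi30, a lysosomal thiol reductase, gave the smallest difference of the list, 1.42. The WT list had 12 of 13 members higher, with a median of 3.22. The level of class II genes was lower on the KO array than on the WT array of the same organ for H2-Aa (4.70 against 6.39 in spleen, -0.10 against 2.38 in marrow) and for H2-Eb1 (4.77 against 6.18, -0.26 against 2.70), so the organ difference lay on a lower base.

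Class II promoters are known for a fixed set of elements that ends in a Y box, an inverted CCAAT. In the 250 bases before the RefSeq start, searched on both strands, the letters GATTGG or their complement CCAATC were in 8 of the 10 class II list genes that have a RefSeq promoter, against 16.6% of all genes with one. Below are the 150 bases before the start of 4 of these 8 genes, shown as examples (RefSeq, GRCm38.p6, 5′ to 3′ on the gene's strand, these letters in capitals). The matched promoters of H2-Eb2, H2-DMa, H2-DMb2 and H2-Oa and those without a match are not shown. H2-Aa lies at chr17:34287824-34287973 on the minus strand, and H2-Eb1 (chr17:34305717-34305866), H2-DMb1 (chr17:34153041-34153190) and H2-Ob (chr17:34238755-34238904) on the plus strand.
H2-Aa: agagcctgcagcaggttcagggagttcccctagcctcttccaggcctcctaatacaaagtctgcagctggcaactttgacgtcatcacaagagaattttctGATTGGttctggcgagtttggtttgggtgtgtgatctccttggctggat
H2-Eb1: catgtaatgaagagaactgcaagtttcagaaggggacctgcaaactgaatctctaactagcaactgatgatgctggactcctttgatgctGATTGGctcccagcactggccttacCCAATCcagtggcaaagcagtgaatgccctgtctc
H2-DMb1: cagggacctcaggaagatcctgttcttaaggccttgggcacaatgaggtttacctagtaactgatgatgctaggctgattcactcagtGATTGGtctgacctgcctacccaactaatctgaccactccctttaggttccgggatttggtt
H2-Ob: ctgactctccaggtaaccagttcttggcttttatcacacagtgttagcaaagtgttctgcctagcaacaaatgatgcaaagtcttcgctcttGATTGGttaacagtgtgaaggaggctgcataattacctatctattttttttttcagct
In all 4 windows, which are all from genes with a match, the first GATTGG lay between positions -62 and -49 from the start. The same letters were in 2 of 27 RefSeq promoters of the mature list and in 5 of 25 of the early list. A match is a description of the letters and not of a bound factor.

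Marginal zone and B-1 cell genes were mixed, with 13 of 22 measured genes on the spleen side and 4 on the marrow side, and a median of 1.38 in KO and in WT. Cr2 led, followed by Fcrl5, at least 12.1-fold higher but at -0.31 by its other probe, Dtx1, a Notch pathway regulator, at 4.01, Myof at 3.76 and Zbtb32 at 3.08. Dtx1 stood at 5.16 in spleen and 1.14 in marrow. Cd1d1, the lipid-presenting molecule abundant on marginal zone cells, stood at 5.81 and 3.98 in KO, a difference of 1.83, and differed by -0.67 in WT. With spike-in scaling, which adds 2.11 to every WT difference, Cd1d1 was on the spleen side in WT too. Cd9, another marker of marginal zone cells, differed by -0.84 in KO. The lower members were Sox7, at least 2.62-fold lower, Arid3a, a factor of B-1 and early B cells, at -2.46, Spn (CD43) at -1.58 and Plscr1 at -1.52.

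Homing receptors were more often higher than lower, 15 against 3 of 27 measured, with a median of 1.25. Cxcr5, the receptor that leads B cells into follicles, stood at 6.26 in spleen and 2.90 in marrow. Gpr183, which places them within the follicle, stood at 4.71 and 0.78, and Ccr7, the receptor for T zone chemokines, at 3.25 and 0.61. All of them were higher in spleen. Cxcr4, which holds B cell precursors in the marrow, stood at 3.12 and 3.58, a difference of -0.47 in KO against -2.73 in WT. Spike-in scaling, which adds 2.11 to every WT difference and -0.10 to every KO difference, brings the Cxcr4 differences close together.

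The 5 highest members of the homing list were Rgs1, Ackr3, Ccr6, Gpr183 and Itgb7. Rgs1, which dampens chemokine receptor signals and is induced by activation, stood at 3.73 in KO spleen and -3.56 in KO marrow, a difference of 7.28 against 0.71 in WT. Ackr3, a scavenger receptor for Cxcl12, was higher by 5.56 against 1.57 in WT. Ccr6 and Gpr183 were close in both genotypes, at 5.01 and 3.94 against 4.67 and 4.07 in WT, and Itgb7, an integrin chain, was higher by 3.73 against 2.87. The lowest members were Itgam, a myeloid integrin chain, at -5.24, S1pr2, at least 3.16-fold lower but at 0.24 by the probe brightest on the KO arrays, and Selplg, the P-selectin ligand, at -2.02. Neither Rgs1 nor Ackr3 is particular to B cells.

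BAFF and TNF family members stood higher in 8 cases of 16 and lower in 2, and their median was 0.99. Tnfrsf13c, the BAFF receptor on which mature B cells depend, stood at 6.43 in spleen and 5.36 in marrow, a difference of 1.07. Lta and Ltb, which encode lymphotoxins, were higher by 4.70 and 1.94, Cd40 by 2.22, and Tnfrsf17 (BCMA) by 3.55. The ligand Tnfsf13b, which encodes BAFF and is made mainly by other cells, was lower, at -1.71, and Tnfrsf1a at -1.93. Tnf was level in KO, at -0.09, and higher by 3.03 in WT.

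Of the 32 B cell receptor signalling genes, 14 stood higher and 2 lower, around a median of 0.67. Besides Cr2 and Cd22, the higher end held Bank1, an adaptor, at 3.57, Rasgrp3, which activates Ras, at 3.52, and Malt1, which links the receptor to NF-kappaB, at 2.22. The kinase Syk differed by -0.35 and the exchange factor Vav1 by -0.26. The lower members were the phosphoinositide 3-kinase parts Pik3ap1 at -1.21 and Pik3cg at -1.31, and the phosphatase Inpp5d differed by -0.73.

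The transcription factors of the lineage did not lean to the spleen. Of 34 genes, 13 stood lower and 6 higher, and the median of -0.17 became 0.05 with each array centred on its median. Myb, a factor of dividing progenitors, stood at 1.51 in spleen and 5.61 in marrow, and Lef1, a Wnt pathway factor of early B cells, at 0.28 and 4.19. Bach2, which restrains plasma cell fate, was lower, at -2.06, Runx1 at -1.73 and Klf13 at -1.73. Ikzf3 (Aiolos), which increases as B cells mature, was higher by 2.18, Bcl11a by 1.75, Relb by 1.26, Runx3 by 1.06 and Klf3 by 1.05. Runx1 was higher in WT spleen, by 0.90.

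The Mef2 family and its partners stood close to level, with 2 of 15 higher, 4 lower and a median of -0.03, which became 0.19 with each array centred on its median. Mef2b, the family member of germinal centre cells, differed by 0.47, and the calcineurin parts Ppp3ca and Ppp3r1 by 0.36 and 0.47. Among the class IIa deacetylases, Hdac9 was higher in KO spleen by 1.27, whereas Hdac7 was lower, at -2.02, Hdac4 at -1.56 and Hdac5 at -1.41. Hdac7, which keeps myeloid genes silent in early B cells, stood at 0.66 in spleen and 2.67 in marrow in KO and differed by 0.22 in WT. Hdac9 differed by -1.22 in WT, or by 0.88 with spike-in scaling. Mapk7 (ERK5), a Mef2c kinase, differed by -0.84 and its own activator Map2k5 at -1.34.

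**Figure D2:**
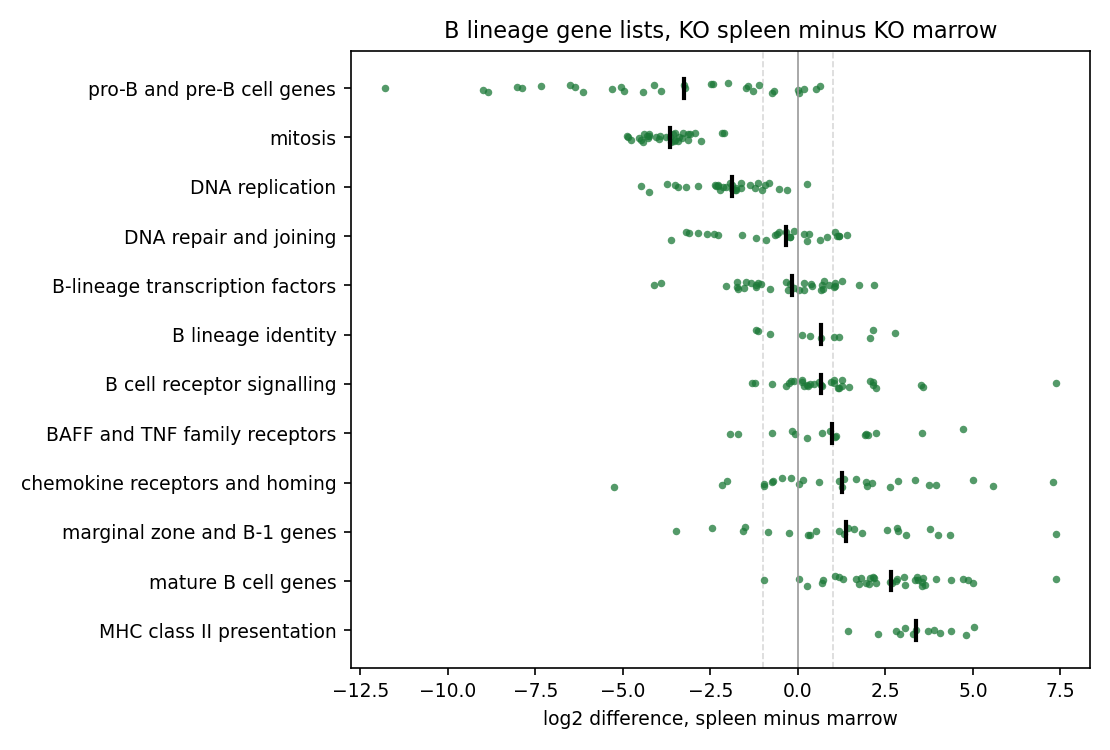
Difference of each measured gene (log2, KO spleen minus KO marrow, horizontal axis) in 12 gene lists, 1 point a gene, those above background on 1 array only included, with the list median as a black bar and dashed lines at 2-fold either way. Mitosis, replication and early B cell genes lie to the left, MHC class II and mature genes to the right, and transcription factors spread about 0 with a median of -0.17.

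Division was the other program lower in spleen. All 32 mitosis genes were at least 2-fold lower in KO spleen, 31 of them well above background on both arrays, with a median of -3.64 and a range of -4.87 to -2.11, against 13.9% of all genes lower. Mki67, the Ki-67 antigen of cycling cells, stood at 2.52 in spleen and 6.44 in marrow. Ccnb1, cyclin B1, stood at -2.14 and 2.16, and Ccna2, cyclin A2, differed by -4.84. Kif11, the spindle motor, differed by -4.87 by its brightest probe and by 0.31 in the median over its probes. Top2a, Plk1 and Cenpf were lower, at -4.78, -4.53 and -4.47, and the smallest differences were those of Cenpa at -2.11 and Ndc80 at -2.16, both of the kinetochore.

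DNA replication genes were lower by less: 26 of 31 stood lower and 0 higher, around a median of -1.89. Rrm2, the ribonucleotide reductase part made in S phase, stood at -0.01 in spleen and 4.48 in marrow, a difference of -4.49. Cdc6 and Mcm10, which license and start origins, were lower, at -4.26 and -3.50, and Mcm5, part of the helicase, at -2.21. Pcna, the polymerase clamp, differed by -0.82 in KO against -2.50 in WT, and Cdt1 by 0.26 against -1.22. Spike-in scaling, which adds 2.11 to every WT difference, leaves Pcna less low in WT than in KO. It also turns Cdt1 to the spleen side in WT. WT had all 31 replication genes and all 32 mitosis genes on the marrow side, at medians of -2.42 and -3.56. These medians were -0.31 and -1.46 with spike-in scaling.

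Genes of the late cell cycle are known to be read from CCAAT boxes and from a CHR element near the start. The CCAAT letters GATTGG were in 18 of 27 mitosis genes with a RefSeq promoter and in 11 of 25 replication genes, against 16.6% of all genes. The CHR letters TTTGAA, or their complement TTCAAA, were in 11 of 27 mitosis genes and 4 of 25 replication genes, against 18.3%. The E2F letters TTTGGCGC were in 3 of 25 replication genes and 0 of 27 mitosis genes, against 0.485% of all genes, and the form TTTCCCGC in 3 of 25 and 0 of 27, against 1.03%. Below are 3 mitosis promoters that hold both the CCAAT and the CHR letters (capitals), as 150 bases before the RefSeq start on the gene's strand in GRCm38.p6, with no overlap between matches: Cdk1 (chr10:69352913-69353062, minus), Top2a (chr11:99024190-99024339, minus) and Cdc20 (chr4:118437344-118437493, minus).
Cdk1: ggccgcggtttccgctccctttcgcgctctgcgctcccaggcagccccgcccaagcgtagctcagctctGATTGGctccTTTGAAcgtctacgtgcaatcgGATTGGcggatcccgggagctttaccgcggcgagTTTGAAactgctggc
Top2a: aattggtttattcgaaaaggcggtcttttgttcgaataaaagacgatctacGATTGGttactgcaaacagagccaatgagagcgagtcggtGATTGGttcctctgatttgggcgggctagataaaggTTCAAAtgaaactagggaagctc
Cdc20: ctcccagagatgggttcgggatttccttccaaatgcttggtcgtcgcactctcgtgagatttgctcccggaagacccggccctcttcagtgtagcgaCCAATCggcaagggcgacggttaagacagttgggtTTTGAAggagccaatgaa
Cdk1, the mitotic kinase, was lower in KO spleen, at -3.96, Top2a, which untangles chromosomes, at -4.78 and Cdc20, which starts anaphase, at -3.57. A loose form of the Mef2 box, which lets any base stand in its middle, was also searched. It was found in 1 of 25 promoters of the early list, 2 of 27 of the mature list and 0 of 10 of the class II list, against 3.70% of all genes. These are not counts of the stricter Mef2 consensus, which was not searched.

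Replication-dependent histones, which are made in S phase, were lower in 11 of 26 measured genes and higher in 0, with a median of -0.98. H2ac6, H1f5 and H2ac15 were lower, at -3.36, -2.94 and -2.77, while H4c1, H4c6, H4c14 and H4c4 differed by 0.42, 0.34, 0.33 and 0.33. These H4 genes encode the same protein and have similar transcripts, so their probes may not separate them. Of the 51 histone genes listed, 25 had no probe named here.

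Repair and joining genes, 27 in number, stood lower in 9 cases and higher in 5, around a median of -0.33. H2ax, a histone marked at DNA breaks, stood at 3.25 in spleen and 6.87 in marrow. Cdkn1a (p21), an arrest gene, was lower, at -3.21, Xrcc6 (Ku70) at -3.11 and Chek1 at -2.59. Xrcc6 and its partner Xrcc5 (Ku80), which together hold the broken ends of antibody genes, stood on opposite sides, as Xrcc5 was higher by 1.18. Atr, Prkdc, Atm and Nbn, which sense or signal breaks, were higher by 1.41, 1.18, 1.12 and 1.07.

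Survival genes split by member, 4 higher and 6 lower of 24, with a median of 0.17. Bcl2 stood at 2.53 in spleen and -0.30 in marrow, Bcl2a1b at 5.93 and 0.52, and Mcl1 at 6.60 and 5.47, and all 3 block apoptosis. Bcl2l1 (Bcl-xL), which does the same at the pre-B stage, stood at -4.03 and 1.24, a difference of -5.26 with its probes between -5.26 and -1.43. Thus Bcl2 and Bcl2a1b were higher and Bcl2l1 lower in spleen, in KO and also in WT, at 2.37, 2.93 and -3.32. Bcl2a1b belongs to a family of near-identical copies that its probe may not separate. Pmaip1 (Noxa), which promotes apoptosis, was higher by 2.95, and Birc5 (survivin), also a mitosis gene, lower, at -3.52.

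Of 16 measured germinal centre and plasma cell genes, 7 stood on the spleen side and 2 on the marrow side, around a median of 0.55. Jchain, which joins IgM and IgA into polymers, stood at 3.28 in spleen and -2.60 in marrow, a difference of 5.87 against 5.57 in WT. Rgs13, of germinal centre cells, was higher by 3.40, Fkbp11 by 1.88 and Bcl6, the master factor of the germinal centre, by 1.80. Irf4, needed for plasma cells, was lower, at -1.35, and Sdc1 (CD138), their surface marker, differed by -0.53. Prdm1, the plasma cell factor, differed by 0.46.

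Antibody gene probes carry the names of the array design and cannot be placed on current genes here. The Igh-6 name stands for the mu heavy chain, and its probe printed at 10 spots gave 47846 signal units in KO spleen and 56089 in KO marrow, a difference of 0.73 after scaling. All 8 lambda chain probes named Igl-V1 were higher in KO spleen, by 1.42 to 1.71, against 0.35 to 1.14 in WT. Spike-in scaling, which adds 2.11 to every WT difference, puts the WT values of these probes above those in KO. Of 6 probes named Igh, 3 that lie together at chr12:114496985-114497302 of mm9 were higher by 6.49 to 7.78 in KO and 8.48 to 10.13 in WT, and the others differed by -0.10 to 1.05 in KO. The brightest of the 3 gave 56310 signal units in KO spleen, 498 in KO marrow, 234997 in WT spleen and 207 in WT marrow. Near-identical segments and constant regions share sequence, so these probes are uncertain as to gene.

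Several housekeeping and stress lists stood apart between the genotypes. Of 37 ribosomal protein genes, 28 were at least 2-fold higher in KO spleen and 0 lower, with a median of 1.20, against 2 of 37 and a median of 0.24 in WT, which was 2.35 with spike-in scaling. Rpl22 stood at 8.30 in KO spleen and 6.29 in KO marrow, and the lowest member, Rpl3, at 7.73 and 7.11. These genes are among the brightest on the arrays, and their median was 0.19 after quantile normalization of the 4 arrays and 0.30 after cyclic loess of the compared ones. Over the brightest 4194 of the genes above background on both arrays, the KO median was 0.41, against -0.24 over the brightest 4645 in WT. The value of the ribosomal protein list therefore turns on the scaling.

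Respiratory chain and ATP synthase genes stood near level in KO, with 1 of 30 higher and a median of 0.35, which was -0.18 after cyclic loess, and at -0.48 in WT, which was 1.63 with spike-in scaling. Cox6c differed by 1.06 and Sdhc at -0.87. Control genes had a median of 0.08, with B2m, the light chain of class I molecules, at 1.31, Eef1a1 at 0.98, Actb at -0.55 and Gapdh at -1.19, and this median was -0.25 after quantile normalization of the 4 arrays. The control genes thus did not share 1 direction under every scaling.

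Heat shock genes stood on the spleen side in KO and, except with spike-in scaling, on the marrow side in WT. In KO, 7 of 17 were at least 2-fold higher in spleen and 0 lower, with a median of 0.96, whereas WT had 1 on the spleen side, 7 on the marrow side and a median of -0.94, which was 1.17 with spike-in scaling. Hspa1a, the inducible Hsp70, stood at 2.75 in KO spleen and -2.99 in KO marrow, and at -4.51 in WT spleen and -2.20 in WT marrow. Its near-identical neighbour Hspa1b stood at 0.70 and -4.32 in KO. Hsph1 and Dnaja1, partners of Hsp70, were higher by 2.24 and 1.70 in KO and differed by -1.23 and -1.86 in WT. The KO list median was between 0.31, after cyclic loess, and 1.18, with arrays centred on their median. Heat shock genes are known to respond to handling of cells and tissue, and the handling of each sample is not given beyond fresh isolation.

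Immediate early genes, which respond to stimulation and to dissociation of tissue, stood higher in 9 and lower in 2 of 24 cases, around a median of 0.71 against 0.05 in WT, which was 2.16 with spike-in scaling. Egr3 stood at 2.51 in spleen and -1.39 in marrow, Egr2 at 1.62 and -1.90, and Nr4a1, a reporter gene of receptor signalling, at 4.69 and 1.81. Cd69, an early activation marker, was higher by 2.21 in KO and 0.19 in WT. Spike-in scaling, which adds 2.11 to every WT difference, brings the Cd69 differences close together. The lower ones were Fosl2 at -3.95 and Ier3 at -3.10, so the list was not uniform.

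Interferon-induced genes were higher in 23 of 32 and lower in 1 in KO, with a median of 1.32, close to the WT median of 1.21. Ifit3 stood at 2.83 in spleen and -0.79 in marrow, Ifi27l2a at 7.81 and 5.05, and Mx1 at -1.48 and -4.06. Ifi202b stood apart: at 1.76 it was well above background on the spleen KO array and not on the other 3, at least 206-fold higher in KO spleen. Ifi202b is known to be silent in C57BL/6 mice and active in several other strains. The strain background of the KO arrays is not given, and its part in this difference was not tested. Oas3 was the exception downward, at -2.43 in KO and 2.06 in WT, although its other probe gave 0.05 in KO.

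**Figure D3:**
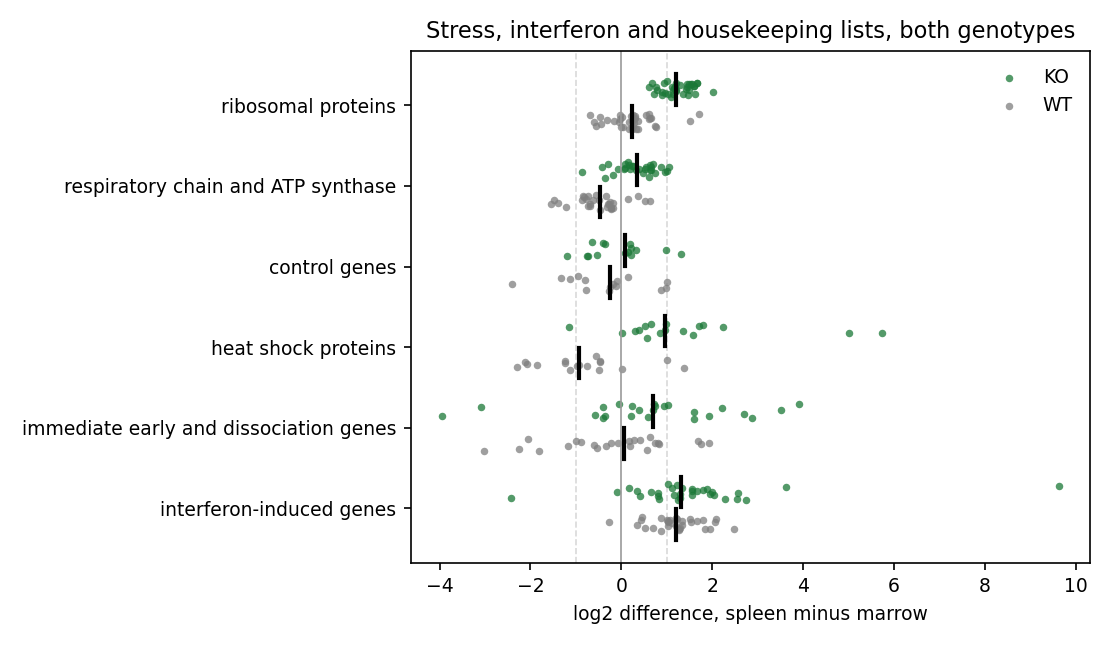
Difference of each measured gene (log2, spleen minus marrow, horizontal axis) in 6 lists, KO in green and WT in grey, with list medians as black bars and dashed lines at 2-fold either way. The medians of heat shock proteins are 0.96 in KO and -0.94 in WT (1.17 in WT with spike-in scaling, which is not plotted), and those of interferon-induced genes are 1.32 and 1.21.

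Markers of other cells differed with organ too, and their part in the differences above was not tested. All 17 neutrophil markers measured were lower in KO spleen, with a median of -5.40, and their summed level, as a multiple of the 75th percentile, was 148 in KO spleen, 1549 in KO marrow, 12.8 in WT spleen and 445 in WT marrow. Ngp, a neutrophil granule protein, stood at -1.82 in KO spleen and 6.72 in KO marrow, Ltf (lactoferrin) at 0.61 and 7.89, and Mmp9 was at least 432-fold lower in spleen. S100a9 and S100a8, the most abundant neutrophil proteins, stood at 6.86 and 8.81 and at 4.62 and 8.56, and so were bright on both arrays. The neutrophil sum was higher in KO than in WT in both organs, but these 2 genes made up 95.2% of it in KO spleen. Without them, a choice made after the values were seen, the other 15 markers summed to 7.17 in KO spleen, 724 in KO marrow, 2.28 in WT spleen and 96.9 in WT marrow. Spike-in scaling puts the spleen sum of these 15 lower in KO than in WT.

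Splenic red pulp macrophage markers went the other way, with 10 of 12 higher and 0 lower in KO, a median of 3.09 and summed levels of 255 in KO spleen, 25.7 in KO marrow, 68.1 in WT spleen and 23.6 in WT marrow. Cd5l, a scavenger protein of tissue macrophages, stood at 5.18 and -0.85 in KO, a difference of 6.03 against 2.20 in WT, and Spic, the factor that specifies these macrophages, at 4.77 and 0.03. Hmox1, which breaks down haem, was higher by 3.51 and Vcam1 by 2.87. Of the wider macrophage and monocyte list 11 of 18 were higher and 2 lower, with Cd163 at 4.40, Marco at 4.39 and Adgre1 (F4/80) at 3.62, and with Lyz2 at -2.35 and Itgam at -5.24, which neutrophils share. The summed level of that list was 228 in KO spleen and 361 in KO marrow. All 12 red pulp markers were well above background on the spleen KO array. Spike-in scaling puts their summed level lower in KO spleen than in WT spleen.

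T and NK cell markers were low but present. T cell markers summed to 24.8 in KO spleen and 14.2 in KO marrow, with 4 of 16 higher and 1 lower, and defining chains on both sides: Cd8b1 was higher by 3.10 and Cd8a by 2.94, with other Cd8a probes down to -0.05, Cd3e differed by 0.54, and Cd3d was lower, at -1.48 against 2.36 in WT. NK cell markers summed to 17.1 and 11.9, with 7 of 13 higher and 1 lower, led by Tbx21 at 3.07, a factor B cells can also make, Ccl5 at 2.43 and Klrk1 at 2.42. Plasmacytoid dendritic cell markers, 12 in number and summing to 139 and 122, gave 3 on each side around a median of 0.25. Siglech, their defining receptor, differed by -0.52. Of 12 conventional dendritic cell markers 3 stood higher, led by Batf3 at 2.97, and 2 lower, around a median of 0.55.

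Marrow stroma and platelet transcripts were on the marrow side. Of 14 stromal and endothelial markers 10 were lower in KO spleen and 1 higher, with a median of -3.29: Col1a1, a collagen of bone, stood at -4.41 in spleen and 3.05 in marrow, and Cxcl12, the niche chemokine, at -3.10 and 4.04. The higher one was Cxcl13, the follicular chemokine made by splenic stroma, at least 5.12-fold. Platelet and megakaryocyte markers were lower in 10 of 13, with a median of -3.43, among them Pf4 at -4.60 and Ppbp at -4.65. Only 9 of these 13 were well above background in KO spleen. The median was -2.16 with bounds for genes above background on 1 array only, and -1.73 with normexp background. The summed levels in KO spleen and KO marrow were 2.31 and 43.6 for stroma and 8.05 and 28.6 for platelets.

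Erythroid, progenitor and basophil lists were thin. Erythroid markers stood higher in 3 and lower in 1 of 11 cases, around a median of 0.10 that was -0.20 over genes above background on both arrays. Hba-a1, a haemoglobin chain, was higher in KO spleen by 2.65 and Alas2, of haem synthesis, by 2.32, while the 4 beta-globin probes, which the array names Hbb-b1, were higher by 3.25 to 3.47. Nuclear erythroid factors were not: Klf1 differed by -0.49 and Gata1 at -0.66. Progenitor markers were lower in 5 of 9, Cd34 at -3.92 and Kit at -3.23, with Ly6a (Sca-1), which some mature lymphocytes carry, higher by 4.32. Of 8 basophil and mast cell markers 3 were lower and 1 higher, with Hdc at -3.45 and Fcer1a at 1.98. Only 5 of 9 progenitor and 4 of 8 basophil markers were well above background on the spleen array, so these medians rest on few genes.

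**Figure D4:**
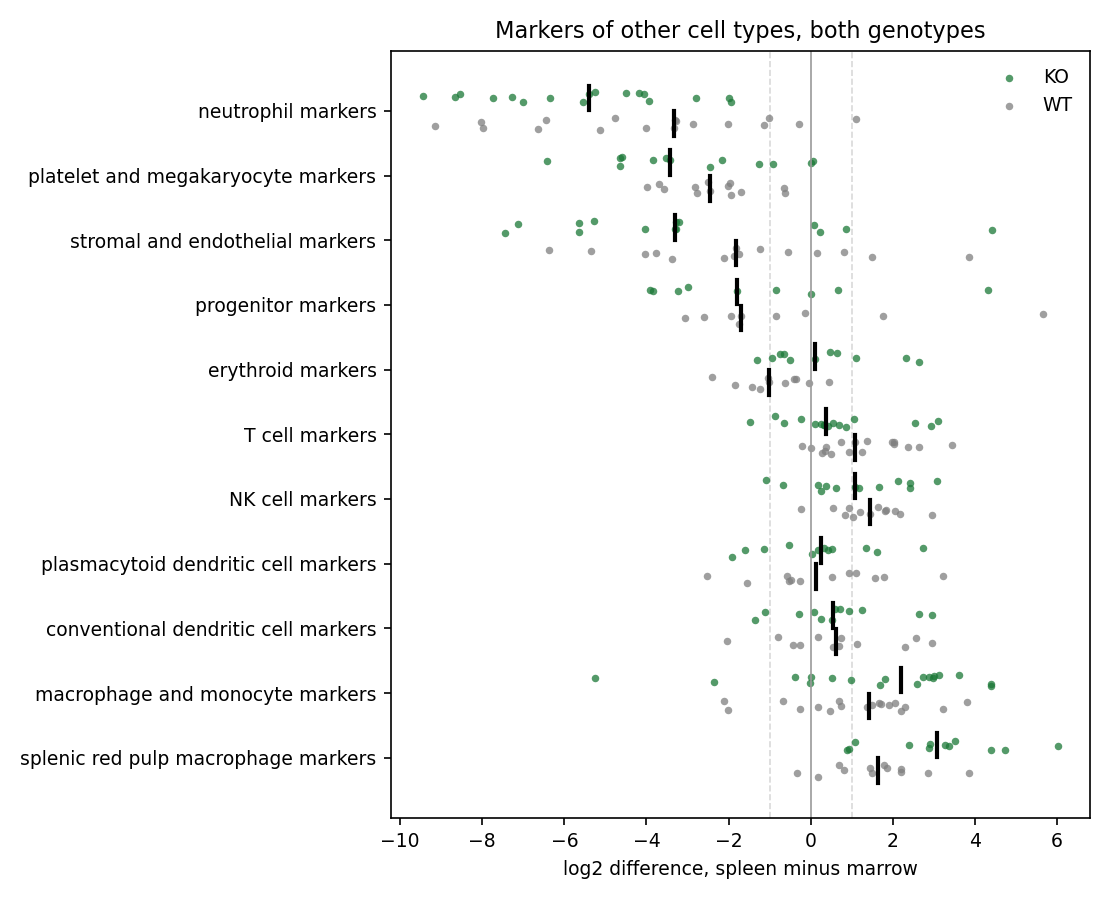
Difference of each measured marker (log2, spleen minus marrow, horizontal axis) of 11 other cell types, KO in green and WT in grey, with list medians as black bars and dashed lines at 2-fold either way. Neutrophil, platelet and stromal markers lie on the marrow side and red pulp macrophage markers on the spleen side in both genotypes, with KO medians of -5.40 and 3.09 for neutrophils and red pulp macrophages against -3.33 and 1.63 in WT. With spike-in scaling, which is not plotted, the WT stromal median turned to 0.29.

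The ends of the whole distribution mixed B cell and other genes. Among genes well above background on both KO arrays, the highest difference was that of Adamdec1, a metalloprotease of macrophages and dendritic cells, at 7.95, followed by Igh, Cr2, Rgs1, Cd5l, Clec4n at 5.96, Ms4a4d at 5.92 and Gpr34 at 5.90. Ccl24 and Ccr3, an eotaxin and its receptor, were higher by 5.86 and 5.80. At the other end stood a family of stefins, cysteine protease inhibitors of neutrophils: Cstdc5 at -11.31, Stfa1 at -11.15, Csta1 at -9.99, Csta2 at -9.76, Stfa2l1 at -9.59 and Cstdc4 at -9.51. Other probes gave 1.47 for Ms4a4d and -1.68 for Csta1. The stefin genes are near-identical copies, so they may count as fewer transcripts than names. Between them and the next myeloid genes, Lcn2 at -8.68 and Ngp at -8.53, stood Rag1 and Vpreb1. Dntt, Adgrg1 at -7.85, Itgb2l at -7.84, Mmp8 at -7.73 and Asprv1 at -7.60 closed the 15 lowest.

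KO and WT pairs share no array, though they share slides and scans. Of 19707 genes measured in both, 1191 were higher in spleen in both, which is 38.5% of the KO higher genes and 43.9% of the WT higher genes. Lower in both were 1549, which is 56.3% of the KO lower genes and 47.1% of the WT lower genes. Of all 19707 genes, 3091 were higher and 2749 lower in KO, and 2710 were higher and 3290 lower in WT. Higher in KO and lower in WT by at least 2-fold were 78 genes, and 94 the reverse. The WT side of these counts turns on the scaling. With spike-in scaling, 17051 of all genes measured in WT were higher and 376 lower. The overlap is given without spike-in scaling only. Pearson's r between the differences was 0.62 and Spearman's rho 0.46 over the 16517 genes above background on all 4 arrays, given as a description, since genes do not stand in for replicates. The largest shared differences were those of Igh, Adamdec1, Cr2, Jchain, Ccr6 and Fcer2a on the spleen side and of Rag1, Vpreb1, Cstdc5, Ngp, Csta1 and Dntt on the marrow side. The 10 highest also held Ly6a and Ccl24, and the 10 lowest the collagen gene Col1a1, so these were not only B cell and neutrophil genes.

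The difference between the differences (KO less WT) was over 2-fold up in 3465 genes and over 2-fold down in 2003, with a median of 0.29, and none of it was tested. With spike-in scaling these counts were 39 and 14096 and the median -1.92, and with arrays centred on their median 6054, 1149 and 0.68, so the balance of the signs turns on the scaling. Hspa1a led upward at 8.05, followed by Rgs1 at 6.57. Slc4a7 and Smndc1, at 5.52 and 4.48, both stood level in KO, at 0.35 and 0.17, with WT differences of -5.18 and -4.31. Col6a4 at 4.60 (with another probe level, at 0.12, in KO), Zfp948 at 4.06, Ackr3 at 3.99, Cd5l at 3.83, Ubd at 3.75 and Gpr34 at 3.73 were higher in KO spleen. Downward, Csta2 at -6.60, Asprv1 at -4.88, Stfa2l1 at -4.78 and Ltb4r1, a leukotriene receptor of neutrophils, at -4.58 were further on the marrow side in KO. Sema4a and Lilrb4a, at -4.39 and -4.26, were lower in KO spleen, at -4.05 and -3.44 and differed by 0.34 and 0.83 in WT. Atcay, Ankrd52 and Fthl17e, at -4.73, -4.35 and -4.29, were level in KO and higher in WT spleen. Their KO signals were dim, from 25.9 to 90.2 units, so level here means low on both KO arrays. No B cell stage gene was among the 12 highest and 12 lowest of these values.

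**Figure D5:**
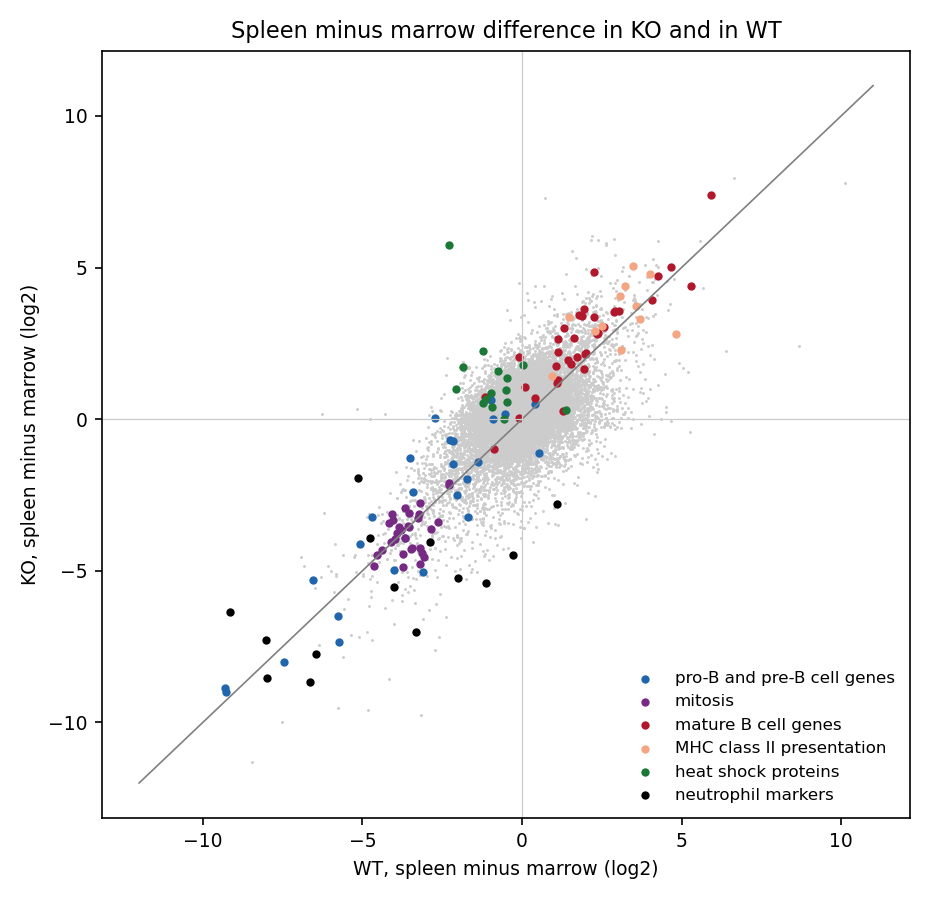
Difference of each gene above background on all 4 arrays (log2, spleen minus marrow) in WT (horizontal axis) and in KO (vertical axis), with genes of 6 lists in colour and the line of equal differences. Mitosis and most early B cell genes lie at the lower left, and MHC class II and most mature genes at the upper right. The KO less WT value was at least 2-fold up in 7 and down in 4 of 26 early genes. It was up in 12 and down in 1 of 36 mature genes, 0 and 5 of 31 mitosis genes and 3 and 1 of 12 class II genes. Over all 16517 genes it was up in 3465 and down in 2003. Most heat shock genes lie above the line, Hspa1a at 5.74 in KO and -2.30 in WT. Spike-in scaling, which is not plotted, adds -2.21 to every KO less WT value.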

How the data were processed

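Cy3-labelled total RNA of freshly isolated B220 cells was hybridised to 4 Agilent 1-colour arrays (design 014868, 60-base probes), 1 for each organ and genotype, per the labels and the file headers. The authors deposited linear intensity values of 1 array a file, made with Agilent Feature Extraction 10.5.1.1, background-subtracted and detrended within the array, per the file headers, with no recorded step between arrays. The deposited series matrix held the same intensity values, with a largest gap of 0 at 45018 spots.

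Control spots and spots marked as outliers (72 to 85 an array) were left out. Log2 processed intensity of 43379 gene spots was set relative to each array's 75th percentile, spots of a probe were averaged, and 41174 probes were named through RefSeq by accession (25097), by current symbol (6333) or by the file's own name (9744), giving 28305 genes or names. A gene took its brightest probe over the 4 arrays. Fold bounds set the bright level against the higher of the dim array's lowest signal well above background and the dim probe's own. At probes printed as 10 spots the SD on an array was 0.059 to 0.071 in log2, which covers technical error of spots only.

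Groups came from the labels, and n is 1 array a side. List members, gene lists and tests were chosen with earlier results of these data known. Named genes are the stage genes, up to 5 at each end of each list, and the ends of all genes (the 15 highest and 15 lowest in KO, 10 in both genotypes, 12 of the difference of differences). Cdk1, Cdc20, Prdm1, Cd3e, Igh-6 and Igl-V1 were named after their values were seen. A few genes that the rule names are not reported here. Motifs were searched in the 250 bases before RefSeq starts (GRCm38.p6). Alternatives changed the scaling (array median, spike-ins, quantile, cyclic loess), background (normexp, offset 50), filter, probe rule, outlier spots and fold, with R 4.3.3, limma 3.58.1, Python 3.11.15, numpy 2.4.6 and pandas 2.3.3. The procedure was tested on simulated arrays of equal brightness, with changes set in bright genes only. That test does not cover unequal arrays, bounds or the scaling.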

Additional observations from a re-analysis of the deposited data

Results flagged for a closer look

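Among the named genes, the only ones searched here, several lay on opposite sides in KO and WT, by at least 2-fold each way. Over all 19707 genes measured in both comparisons, 78 were higher in KO and lower in WT, and 94 the reverse. In WT, 2710 of these 19707 genes were higher and 3290 lower. These counts are without spike-in scaling. None of these differences was tested, since 1 array a group leaves nothing to test with. KO differences are given first. Several heat shock genes were on the spleen side in KO and the marrow side in WT: Hspa1a at 5.74 and -2.30, Hspa1b at 5.02 and a bound of -2.13, Hsph1 at 2.24 and -1.23 and Dnaja1 at 1.70 and -1.86. The deacetylase Hdac9 did the same, at 1.27 and -1.22. With spike-in scaling Hsph1, Dnaja1 and Hdac9 came to the spleen side in WT too, at 0.88, 0.24 and 0.88, and Hspa1a and Hspa1b stood at -0.20 and -0.019. On the marrow side in KO and the spleen side in WT were Cd3d at -1.48 and 2.36, Oas3 at -2.43 and 2.06, S1pr2 at a bound of -1.66 and 2.40, and Rn18s at -3.28 and 1.996. For Oas3 and S1pr2 this turns on the probe. In KO, Oas3 gave 0.05 by its other probe and S1pr2 gave 0.24 by the probe brightest on the KO arrays.

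List medians on opposite sides were 0.96 and -0.94 for heat shock proteins, 0.35 and -0.48 for the respiratory chain and ATP synthase, 0.10 and -1.02 for erythroid markers, and -2.75 and 3.96 for the ribosomal RNA probes. With spike-in scaling the WT medians of the first 3 turned to 1.17, 1.63 and 1.09. The KO medians of the respiratory chain and of erythroid markers also changed side under some alternatives, so the opposite sides of these 3 lists depend on the processing.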

How the results depend on the processing

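No paired analysis was possible because each group is 1 array. The counts of 3192 higher and 2822 lower genes were within 1.5 times of these values under every alternative except the following: 5049 higher without the background filter, 5572 higher and 4280 lower at 1.5-fold, and 1752 lower with normexp background. The median over all genes, 0.07, was 0.30 with arrays centred on their median, 0.37 with normexp, 0.28 without the filter, 0.19 over genes above background on both arrays, -0.033 with spike-in scaling and -0.027 with cyclic loess. Of 37 list medians, 28 kept their direction under all 12 alternatives. Those of transcription factors and the Mef2 family became 0.052 and 0.19 with arrays centred on their median. That of control genes became -0.021 with spike-ins, -0.25 and -0.26 with quantile normalization of 4 and of the compared arrays, and -0.49 with cyclic loess. The respiratory chain gave -0.072, -0.071 and -0.18 under the last 3 of these, and plasmacytoid dendritic cells -0.050 with cyclic loess. Erythroid markers gave -0.0058 with spike-ins, -0.20 over genes above background on both arrays, and -0.32 with the median over probes. Basophil markers gave 0.25 with normexp and 0.34 over genes above background on both arrays, where progenitor markers gave 0.016 and sex genes 1.21. Of 197 named genes at least 2-fold apart, 195 kept their direction, the exceptions being Kif11 at 0.31 with the median over probes and S1pr2 at 0.24 with the probe brightest on the KO arrays, and of 44 named genes under 2-fold, 24 changed sign. The cause of these changes was not tested. Of those 197 genes, 166 stayed at least 2-fold apart under every alternative that gave a value. Several alternatives could not reverse a difference of 2-fold, so the direction kept under them tells nothing. Array-median and spike-in scaling add only 0.23 and -0.10 to every KO difference, and the filter settings keep the sign of each. The alternative that used the series matrix values repeats the main values. With 1 array a side, biological error is unknown.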
